A study of Mus musculus with 12 samples.

Results

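Protocadherin genes were taken as every row of the deposited matrices whose symbol starts with Pcdh and that held at least 50 UMIs (unique molecular identifiers, each standing for 1 captured RNA molecule) over the 12 animals. Of 55336 rows, 70 had such a symbol and 69 passed. Pcdhb1, with 10 UMIs, did not. The 69 members were 57 clustered genes (14 Pcdha, 21 Pcdhb and 22 Pcdhg) and 12 non-clustered genes (Pcdh1, Pcdh7, Pcdh8, Pcdh9, Pcdh10, Pcdh11x, Pcdh12, Pcdh15, Pcdh17, Pcdh18, Pcdh19 and Pcdh20). They were followed across cell classes and neuronal types, and in heterozygous animals (Het) against wild-type animals (WT).

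The data were single nucleus RNA sequencing (snRNAseq) of dissected cortex at postnatal day 21 (P21) from mice of the MYT1L S710fsX strain, which carries a frameshift allele of Myt1l, a neuronal zinc finger transcription factor gene. The line is bred to C57BL/6J mice, and the allele is a germline edit that every cell of a Het animal carries. The study's methods describe the P21 cortex as coming from animals of both genotypes given AAV9 with the Calling Cards reagents hyPB and H2b-tdT-SRT into the ventricles as newborns, which the sample labels do not mention, and no group without the virus was analysed. There were 6 WT animals (3 males, 3 females) and 6 Het animals (3 males, 3 females), each with 1 matrix. By the study's methods, the nuclei of each animal received their own sample barcodes and were then pooled and processed together. Of 78743 barcodes, none was found in more than 1 animal, which the sample barcodes fix in advance. After filtering, 33112 nuclei remained, 1551 to 3182 per WT animal and 2010 to 4413 per Het animal, with median depths of 2970 to 3394.5 UMIs. The frameshift lies within the transcript, so Myt1l counts over the gene do not check the genotype labels. Myt1l was at 896 to 1080 CPM (UMIs scaled to a total of 1000000 UMIs for the class in that animal) in WT and 1044 to 1192 CPM in Het excitatory neuron sums. The log2 fold change of Myt1l (Het against WT) was 0.15 in excitatory and 0.22 in inhibitory neurons. Over the classes and neuronal types it ran from -0.051 (Pvalb) to 0.39 (D1 striatal), and Myt1l was not called in any of them.

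Protocadherins are the largest group of the cadherin superfamily of cell adhesion molecules. The clustered genes are arranged in tandem arrays in which each variable exon has its own promoter. The matched combinations on touching membranes serve self-recognition and self-avoidance of dendrites, and clustered genes also take part in neuronal survival. A neuron expresses a small, largely stochastic choice of them. CTCF, cohesin and DNA methylation take part in that promoter choice. Genes of the alpha array splice their variable exon to shared constant exons, and so do those of the gamma array, while each beta gene is a single exon. Non-clustered protocadherins are mostly encoded by genes with long introns, have restricted patterns among neuronal types and act in axon guidance, circuit formation and synapse organization. Several are disease genes, among them Pcdh19 in an X-linked epilepsy and Pcdh15 in deafness.

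Nuclei were grouped by clustering and named from marker genes, and the word "like" is to be read with every class and type name, since no annotation of nuclei was used. The classes held 19492 excitatory, 8604 inhibitory, 1550 oligodendrocyte, 500 oligodendrocyte precursor (OPC), 228 newly formed oligodendrocyte, 154 astrocyte and 161 leptomeningeal nuclei. Over the pooled nuclei of each class, marker genes of excitatory neurons summed to 1106 CPM in the excitatory class and 65 CPM in the inhibitory class. Inhibitory markers summed to 1115 CPM and 10 CPM in the inhibitory and excitatory classes. Oligodendrocyte markers summed to 29650 CPM in oligodendrocytes and 87 CPM in excitatory neurons. Precursor markers summed to 1112 CPM in the excitatory and 1075 CPM in the inhibitory class, about as high as the own markers there, and to 20430 CPM in newly formed oligodendrocytes, above the 14560 CPM of their own list. Of the 12 neuronal types compared, 3 carried markers of hippocampal dentate gyrus granule cells (DG) or of striatal D1 and D2 neurons, although the tissue was labelled cortex. DG nuclei (825) were kept out of the excitatory class, as were 769 nuclei of a first-round cluster that met no class's criteria, and striatal nuclei fell within the inhibitory class. The other types compared were layer types (L2/3 IT, L4/5 IT, L5 NP, L6 IT, L6 CT, where IT marks intratelencephalic neurons) and the interneuron types Pvalb, Sst, Vip and Lamp5. Unnamed inhibitory clusters stayed in the inhibitory class. Those that best matched a list for immature GABAergic neurons, the largest of 755 nuclei, were all left unnamed. Values of the inhibitory class include these nuclei. In 5 types (D1 striatal, DG, L6 IT, Sst and Vip) another type's list summed above their own, for example Pvalb markers at 2388 CPM against Sst markers at 1159 CPM in Sst nuclei, and L6b markers at 1516 CPM against 850.8 CPM in L6 IT nuclei. Types were named by how far each list lay above its median over clusters, not by its summed level. Animals with fewer than 10 nuclei of a class were left out of it, which left 10 animals for newly formed oligodendrocytes, 8 for astrocytes and 6 for leptomeningeal nuclei.

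The first question for the clustered genes was how far their counts belong to single genes, because the values in the files were partly fractions of a UMI. On mouse chromosome 18 (mm10, plus strand), the annotated Pcdha genes span 36930184 to 37187661, the Pcdhb genes 37294812 to 37524479 and the Pcdhg genes 37661793 to 37841873. All 14 Pcdha genes end within 10 bases of each other, as do all 22 Pcdhg genes, so that a read from the shared 3′ exons or from an intron lies within many annotated genes at once. In the nuclei analysed, fractions made up 81.6% of 26498 Pcdha UMIs and 70.1% of 23144 Pcdhg UMIs. They made up 4.63% of 4783 Pcdhb UMIs and 0.432% of 1095544 UMIs of non-clustered genes, beside 1.47% over all genes.

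The division followed the gene structure. Of 17679 nuclei with a Pcdha value, 2433 had values that summed to 1 UMI. Among these, that UMI was spread over all 14 genes in 52% and lay in 1 gene in 30.5%. Among 3628 such nuclei for Pcdhg, of 16227 with a value, it was spread over all 22 genes in 51.5% and lay in 1 gene in 48.1%. For Pcdhb, 95.6% of 3494 such nuclei had it in 1 gene. A UMI also shared with other annotated genes does not sum to 1 over an array, so these percentages leave such UMIs out. The number of nuclei with any value fell along the alpha array, from 16073 for Pcdha1, the first gene, to 6256 for Pcdhac2, the last.

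**Figure D1:**
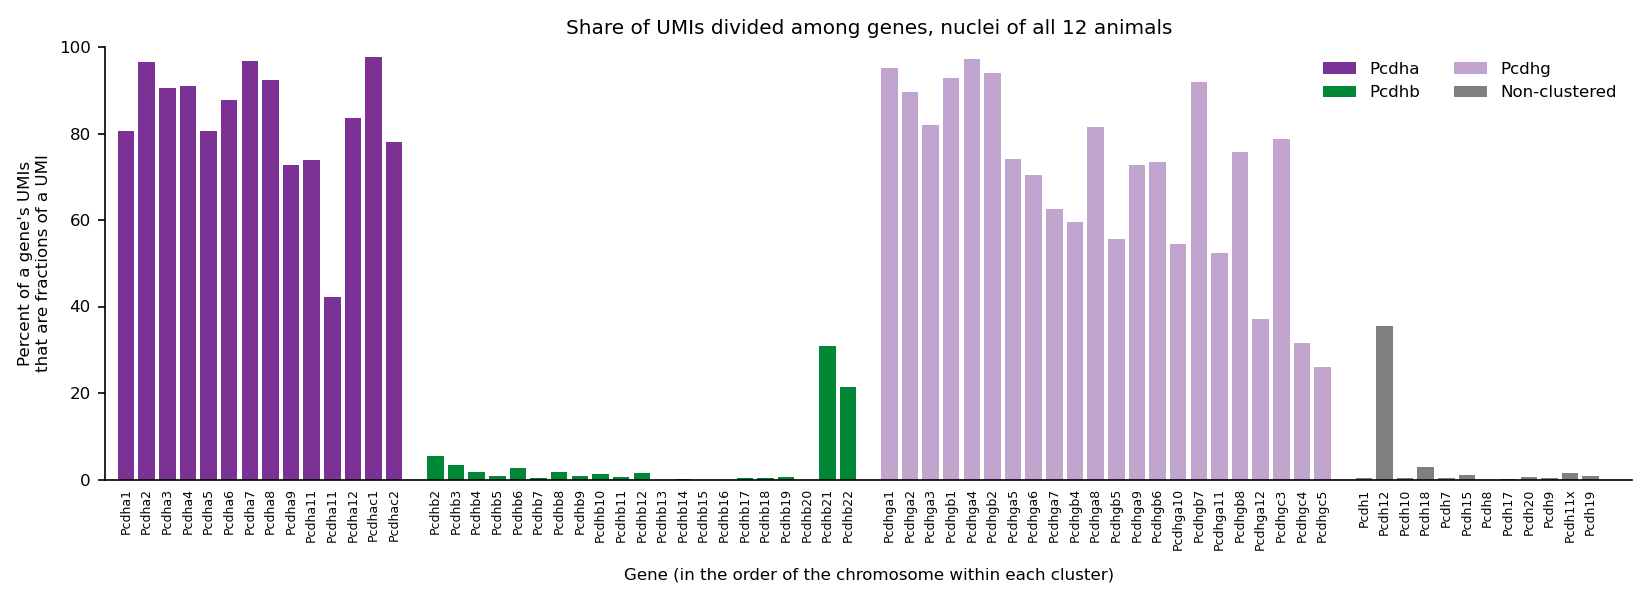
Each bar is 1 protocadherin gene, and its height is the percent of that gene's UMIs, over the nuclei analysed of all 12 animals, that were recorded as fractions of a UMI. Pcdha and Pcdhg bars are high, down to 42.1% and 26%, whereas most Pcdhb and non-clustered bars lie close to 0.

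The share varied between neighbours. At the 3′ end of the gamma array, Pcdhgc5 had 26% of its UMIs divided, Pcdhgc4 31.6% and Pcdhga12 37.2%, whereas Pcdhgc3, which lies among them, had 78.6%. In the alpha array the lowest share was that of one of the pair of rows with the symbol Pcdha11 (ENSMUSG00000102206), at 42.1%. Within Pcdhb, the overlapping neighbours Pcdhb21 and Pcdhb22 had 30.8% and 21.5% of their UMIs divided. The long predicted genes on the same strand, Gm42416, Gm37013 and Gm37388, each overlap 58 clustered rows and held 7037, 6743 and 6618 UMIs, of which 83.7%, 83.6% and 83.5% were fractions. The clustered protocadherin values of a nucleus summed to a whole number (within 0.02) in 22.1% of nuclei, and to one in 96% once 8 overlapping annotated genes were added. Some UMIs of the clustered genes were therefore held by those predicted genes and are missing from every protocadherin sum here. For these reasons single Pcdha and Pcdhg genes are given as uncertain, and each array is described mainly by its sum.

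Summed over its 14 genes, the alpha array had its highest means in neurons. Inhibitory neurons had 289 ± 17 CPM (SD, n = 12; lowest 260.5, median 288.8, highest 314.1) and excitatory neurons 242 ± 12 CPM (lowest 221.6, median 243, highest 260.6). Inhibitory values were higher in 12 of 12 animals, although the ranges met. Oligodendrocyte precursors had 198 CPM (139.8 to 301.5), a range that overlapped both neuronal classes. Oligodendrocytes had 54.3 CPM (28.8 to 116.7), with no overlap between them and precursors. Newly formed oligodendrocytes, astrocytes and leptomeningeal nuclei had means of 36.5, 23.5 and 15.4 CPM, and each of these 3 classes had animals at 0. With all barcodes those means were 68.3, 38.7 and 37.3 CPM, and that of oligodendrocytes was 82.5 CPM, each above its value in the nuclei kept.

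The gamma array was ordered differently. Its 22 genes summed to 498 ± 102 CPM in oligodendrocyte precursors (lowest 335.3, median 491.2, highest 669.6), 416 CPM in newly formed oligodendrocytes, 399.8 CPM in astrocytes and 368 CPM in leptomeningeal nuclei, and the ranges of these 4 classes overlapped. Inhibitory neurons had 224 CPM (187.7 to 267.2) and excitatory neurons 201 CPM (170.5 to 230.9). Oligodendrocytes were lowest at 129 CPM (77.8 to 159), below every oligodendrocyte precursor value by a mean of 3.87-fold. In astrocytes, therefore, the alpha mean was below both neuronal classes and the gamma mean above them.

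The beta array was low everywhere and, being nearly free of divided UMIs, is the array whose genes, Pcdhb21 and Pcdhb22 aside, can be read one by one. Its sum was 64.8 CPM in oligodendrocyte precursors (29 to 122.1), 59.3 CPM in inhibitory neurons (42.2 to 85), 36.1 CPM in excitatory neurons (25.1 to 45.3) and 34.1 CPM in oligodendrocytes (21.6 to 60.9). Inhibitory neurons lay above excitatory neurons in 12 of 12 animals, with overlapping ranges. Pcdhb14, the beta gene with the most UMIs counted whole, had 8.01 ± 2.83 CPM in inhibitory and 5.53 ± 1.08 CPM in excitatory neurons. Pcdhb16 had 5.37 and 2.80 CPM, and Pcdhb17 4.88 and 3.02 CPM, in inhibitory and excitatory neurons.

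**Figure D2:**
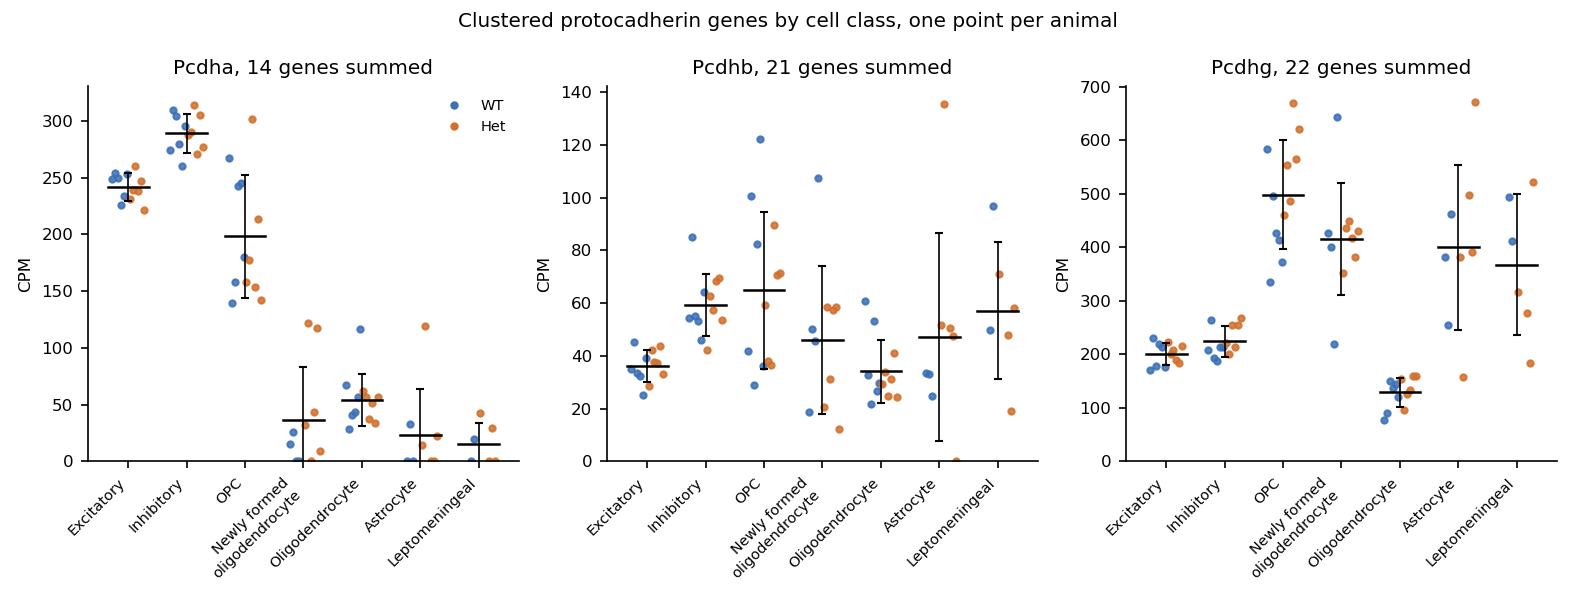
CPM of the summed Pcdha, Pcdhb and Pcdhg genes (vertical axes, starting at 0) in 7 cell classes, with 1 point per animal (WT blue, Het orange) and the mean ± SD in black. Alpha means are highest in neurons, while gamma means are highest in oligodendrocyte precursors at 498 CPM and lowest in oligodendrocytes at 129 CPM.

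When only the whole-number part of each entry was counted, which drops the UMIs divided evenly, the alpha and gamma sums shrank, and the order of the means of neurons, precursors and oligodendrocytes held. Precursors and oligodendrocytes no longer separated, with 0 to 55.7 against 0 to 30.1 CPM for alpha and 47.9 to 301.8 against 15.5 to 55.8 CPM for gamma. The alpha sum became 55.1 CPM in inhibitory neurons, 44.1 in excitatory neurons, 18.9 in oligodendrocyte precursors and 9.33 in oligodendrocytes, and it was 0 in astrocytes and leptomeningeal nuclei. The gamma sum became 143 CPM in oligodendrocyte precursors, 69.9 in inhibitory neurons, 60.4 in excitatory neurons and 37 in oligodendrocytes. The beta sum stayed at 57.8 and 34.9 CPM in inhibitory and excitatory neurons.

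Single genes of the shared-exon arrays carry part of these sums through evenly divided UMIs. Pcdha11 (ENSMUSG00000102206), the alpha gene with the most whole UMIs, had 29.6 ± 3.13 CPM in inhibitory and 26.3 ± 3.23 CPM in excitatory neurons, of which 17.2 and 15.5 CPM remained in whole numbers. Pcdha1 had 35.0 and 27.9 CPM in the same classes, and 7.80 and 5.12 CPM in whole numbers. Pcdha9 had 19.7 and 15.8 CPM, and 5.88 and 3.94 CPM in whole numbers. The C-type genes sit at the ends of the arrays and, unlike the others, are known for constitutive rather than stochastic expression in neurons. Pcdhac1 had 8.50 CPM in inhibitory and 7.30 CPM in excitatory neurons, but 0.221 and 0.106 CPM in whole numbers; 97.6% of its UMIs were divided.

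Of the gamma C-type genes, Pcdhgc5 had 9.46 ± 2.25 CPM in excitatory and 9.05 ± 2.34 CPM in inhibitory neurons, with 7.35 and 6.43 CPM in whole numbers. Pcdhgc4, which is required for neuronal survival, had 6.35 ± 1.03 CPM in excitatory and 8.51 ± 1.37 CPM in inhibitory neurons, and 24.8 ± 28.8 CPM in oligodendrocyte precursors on 33.5 UMIs. In whole numbers Pcdhgc4 had 4.35 CPM in excitatory and 6.06 CPM in inhibitory neurons. Pcdhgc3 was lower, at 2.88 and 3.17 CPM in excitatory and inhibitory neurons, and in whole numbers at 0.570 and 0.463 CPM, where the order of the means turned. Pcdhac2 had 5.51 and 6.504 CPM, and 1.26 and 1.41 CPM in whole numbers. Among other gamma genes, Pcdhga12 had 12.5 CPM in excitatory and 12.7 CPM in inhibitory neurons, Pcdhgb4 11.8 and 11.7 CPM, and Pcdhgb5 10.7 and 11.4 CPM. In whole numbers these were 8.21 and 7.95 CPM for Pcdhga12, 5.01 and 4.54 CPM for Pcdhgb4, and 4.85 and 5.30 CPM for Pcdhgb5. For these 3 genes and Pcdhgc5 the difference between the neuronal classes was smaller than the SD over animals.

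Over all 69 members, 62 had a higher mean in inhibitory than in excitatory neurons: 14 of 14 alpha, 21 of 21 beta, 19 of 22 gamma and 8 of 12 non-clustered genes. For 14 of them this held in all 12 animals. The 7 genes with a higher mean in excitatory neurons included 3 that were higher in all animals, Pcdh1, Pcdh7 and Pcdh9. Over the 27852 genes of all kinds with at least 50 UMIs, the mean was higher in inhibitory neurons for 51.7% and in excitatory neurons for 48.3%, and held in all 12 animals for 8.13% and 7.15%. Ranges of the 2 classes were apart for 6 of 12 non-clustered genes, and for 0 of 14 alpha, 0 of 21 beta and 0 of 22 gamma genes. Over all genes the share was 8.11%. Alpha and gamma genes share divided UMIs, so their higher means in inhibitory neurons are not separate observations.

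Among the non-clustered genes, Pcdh9 gave by far the most UMIs, and it marked oligodendrocytes. It encodes a delta protocadherin, a homophilic adhesion protein of the nervous system. Oligodendrocytes had 36580 ± 2770 CPM (lowest 32000, median 36930, highest 42030), oligodendrocyte precursors 8437 ± 821 CPM (6890 to 9745) and newly formed oligodendrocytes 3388 ± 805 CPM (1932 to 5057). The oligodendrocyte value was 4.34-fold that of precursors, in 12 of 12 animals and without overlap. Excitatory neurons, at 8020 ± 220 CPM (7755 to 8411), lay above inhibitory neurons, at 4061 ± 263 CPM (3721 to 4492), by 1.98-fold in 12 of 12 animals, again without overlap. Astrocytes had 5407 CPM and leptomeningeal nuclei 493 CPM, the lowest of the 7 classes, or 1189 CPM with all barcodes, still the lowest.

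Pcdh7, a delta protocadherin that binds the phosphatase PP1α, peaked in another stage of the same lineage. Newly formed oligodendrocytes had 4059 ± 427 CPM (lowest 3390, median 4001, highest 4698), against 1429 CPM in precursors (1002 to 1887) and 1283 CPM in oligodendrocytes (798.4 to 1692), with no overlap. Leptomeningeal nuclei had 2898 CPM (1936 to 3943), a range that overlapped that of newly formed oligodendrocytes. Excitatory neurons, at 1218 CPM (993.6 to 1335), lay above inhibitory neurons, at 908 CPM (803.3 to 1165), in 12 of 12 animals with overlapping ranges.

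Pcdh15, known for the tip links of hair cells, marked oligodendrocyte precursors. They had 4705 ± 310 CPM (lowest 4140, median 4731, highest 5123), which was 33.2-fold the 142 CPM of oligodendrocytes (72.9 to 322.6) and 17.6-fold when all barcodes were used. Newly formed oligodendrocytes were between, at 704 CPM (342.8 to 1170). Inhibitory neurons, at 978 CPM (749.2 to 1141), exceeded excitatory neurons, at 749 CPM (521.2 to 1059), in 12 of 12 animals, with overlapping ranges.

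Pcdh11x, an X-linked delta protocadherin, was also highest in oligodendrocyte precursors, at 1150 ± 198 CPM (649.6 to 1418), followed by oligodendrocytes at 678 ± 270 CPM (228.2 to 1139). Precursors were higher in 11 of 12 animals, and the ranges overlapped. Its neuronal levels were lower, 171 CPM in inhibitory and 84.8 CPM in excitatory neurons, with inhibitory higher in 12 of 12 animals. Pcdh17, which organizes corticobasal ganglia synapses, had 434 ± 91 CPM in oligodendrocytes (304.3 to 638.1), 336 CPM in precursors and 308 CPM in newly formed oligodendrocytes, which did not separate. Its level in inhibitory neurons, 136 CPM (111.9 to 161.3), lay above that in excitatory neurons, 69.4 CPM (49.5 to 91.1), without overlap.

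Pcdh10, a delta protocadherin of axon growth and excitatory synapse elimination, had its highest mean in astrocytes, 258 ± 94 CPM over 8 animals (66.0 to 370.2). Precursors followed with 143 CPM (83.9 to 234.8), an order seen in 7 of 8 animals and with overlapping ranges. Pcdh19 had 57.0 CPM in inhibitory (39.3 to 69.5) and 20.8 CPM in excitatory neurons (13.98 to 30.1), without overlap. Pcdh1 went the other way, with 25.8 CPM in excitatory (19.7 to 32.8) and 14.9 CPM in inhibitory neurons (10.2 to 19.2). Pcdh8, an activity-regulated protocadherin also called arcadlin, had 14.1 CPM in inhibitory (7.53 to 19.5) and 3.49 CPM in excitatory neurons (2.12 to 7.195), again without overlap.

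The remaining genes were sparse. Pcdh20 had 4.64 CPM in inhibitory and 2.01 CPM in excitatory neurons, and 14.01 CPM in oligodendrocyte precursors on values from 0 to 41.9. Pcdh18 had 4.47 CPM in inhibitory and 0.352 CPM in excitatory neurons. Pcdh12, known from endothelial cells, had 21.7 UMIs in all nuclei analysed and means of 0.248 and 0.174 CPM in excitatory and inhibitory neurons. No UMI of Pcdh12 was seen in oligodendrocytes, which allows up to 0.736 CPM over the class, counting 3 UMIs as the limit and counting error only.

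**Figure D3:**
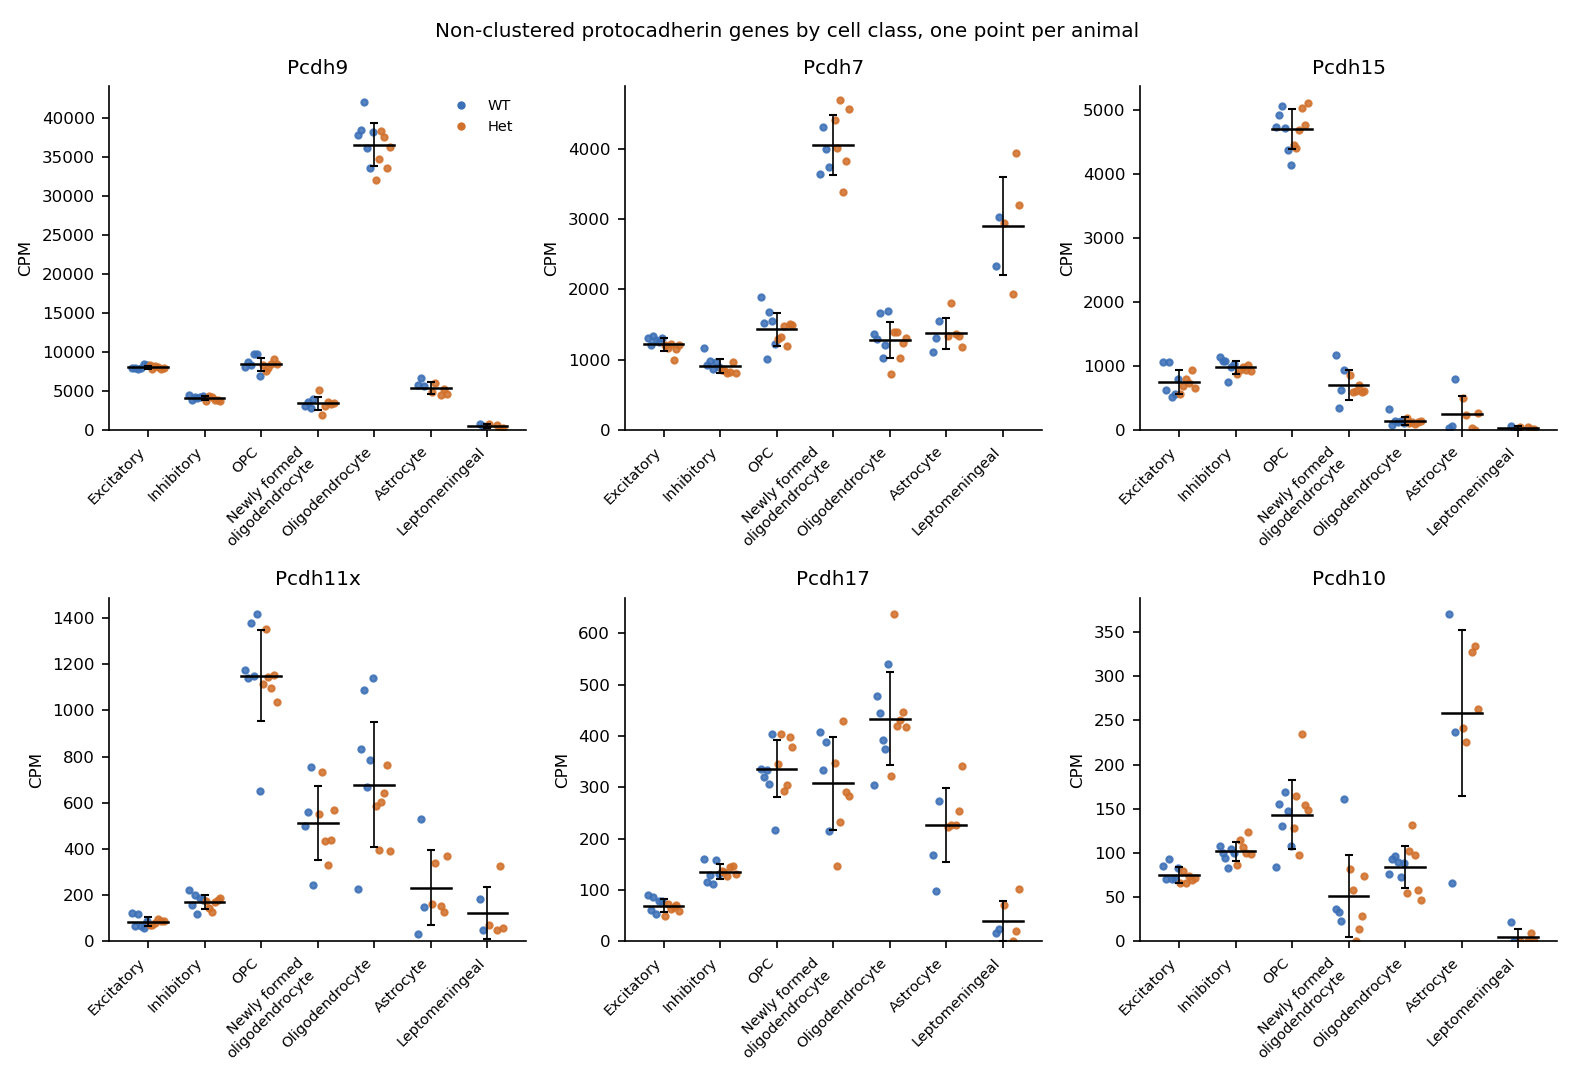
CPM of 6 non-clustered protocadherin genes (vertical axes, starting at 0) in 7 cell classes, with 1 point per animal (WT blue, Het orange) and the mean ± SD in black. Pcdh9 stands out in oligodendrocytes at 36580 CPM and Pcdh15 in oligodendrocyte precursors at 4705 CPM. Pcdh7 has its highest mean in newly formed oligodendrocytes at 4059 CPM, where the range overlaps that of leptomeningeal nuclei.

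Levels of different genes are set side by side per length here. This assumes that nuclear reads fall largely in introns, which was not measured. Per kilobase of gene body in excitatory neurons, Pcdh9 had 9.14 CPM, Pcdh7 2.93, Pcdh10 1.31, Pcdh1 0.987, Pcdh8 0.770 and Pcdh17 0.727. Pcdh15, the longest at 1550 kilobases, had 0.483, Pcdh20 0.303, Pcdh19 0.196 and Pcdh11x 0.137. On this scale of level per kilobase, the short Pcdh8 and Pcdh1 genes lay above Pcdh15, which had many more UMIs.

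Across the 12 neuronal types, the spans of array sums and of single genes are not set against each other, since a sum averages over its members. From the lowest to the highest type mean, the alpha sum spanned 1.397-fold (L2/3 IT 221 CPM, Pvalb 308 CPM), the gamma sum 1.93-fold (Pvalb 131 CPM, D2 striatal 252 CPM) and the beta sum 2.19-fold. Of the single non-clustered genes, Pcdh9 spanned 5.81-fold, Pcdh17 6.02-fold, Pcdh1 9.57-fold, Pcdh15 12.2-fold, Pcdh11x 15.4-fold, Pcdh19 16.6-fold, Pcdh7 22.7-fold and Pcdh10 30.5-fold. Pvalb nuclei, the fast-spiking basket and chandelier interneurons, thus had the highest alpha mean and the lowest gamma mean, though in both orders the nearest type overlapped them.

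Pcdh9 was highest in layer 6 corticothalamic (L6 CT) nuclei, with 12560 CPM, above the next type, L4/5 IT with 8751 CPM, in 12 of 12 animals and without overlap. Not every excitatory type lay above the interneurons. L2/3 IT nuclei had 4739 CPM, beside 4936 CPM in Pvalb and 4624 CPM in Sst nuclei. The lowest means were those of Vip interneurons, 2161 CPM, and D2 striatal nuclei, 2186 CPM, which could not be ordered. Pcdh7 was at 1625 CPM in L6 CT, 1574 CPM in layer 5 near-projecting (L5 NP) and 1456 CPM in L2/3 IT nuclei. Below Pvalb, at 764 CPM, it dropped to 100.2 CPM in Lamp5 interneurons and 71.5 CPM in DG nuclei, and the gap between Pvalb and Lamp5 was free of overlap in 12 of 12 animals.

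Pcdh15 had like means in L6 IT (1500 CPM), Vip (1467 CPM) and L4/5 IT nuclei (1454 CPM), which did not separate, and was lowest in D1 striatal nuclei with 122.5 CPM. Pcdh11x was highest in D2 striatal (299 CPM) and Sst nuclei (256 CPM) and lowest in L6 IT nuclei (19.4 CPM). Pcdh17 was highest in D1 striatal, D2 striatal and L5 NP nuclei (215, 213 and 200 CPM), which overlapped. L4/5 IT nuclei had the lowest Pcdh17 mean, 35.7 CPM.

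Pcdh10 had 156 CPM in D1 striatal and 155 CPM in Vip nuclei, and in DG nuclei 5.10 CPM, below the 59.0 CPM of L4/5 IT in 12 of 12 animals and without overlap. Pcdh19 showed the opposite place for DG, which was highest with 137 CPM, followed by Pvalb with 89.3 CPM. The lowest Pcdh19 mean was 8.26 CPM in L4/5 IT nuclei. Pcdh20 had 31.4 CPM in DG nuclei and 13.3 CPM in Vip nuclei, Pcdh8 35.8 CPM in Vip and 21.2 CPM in DG nuclei, and Pcdh18 12.3 CPM in Sst and 8.01 CPM in Vip nuclei. These last 3 genes rested on few UMIs, and the neighbouring types in each order overlapped.

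**Figure D4:**
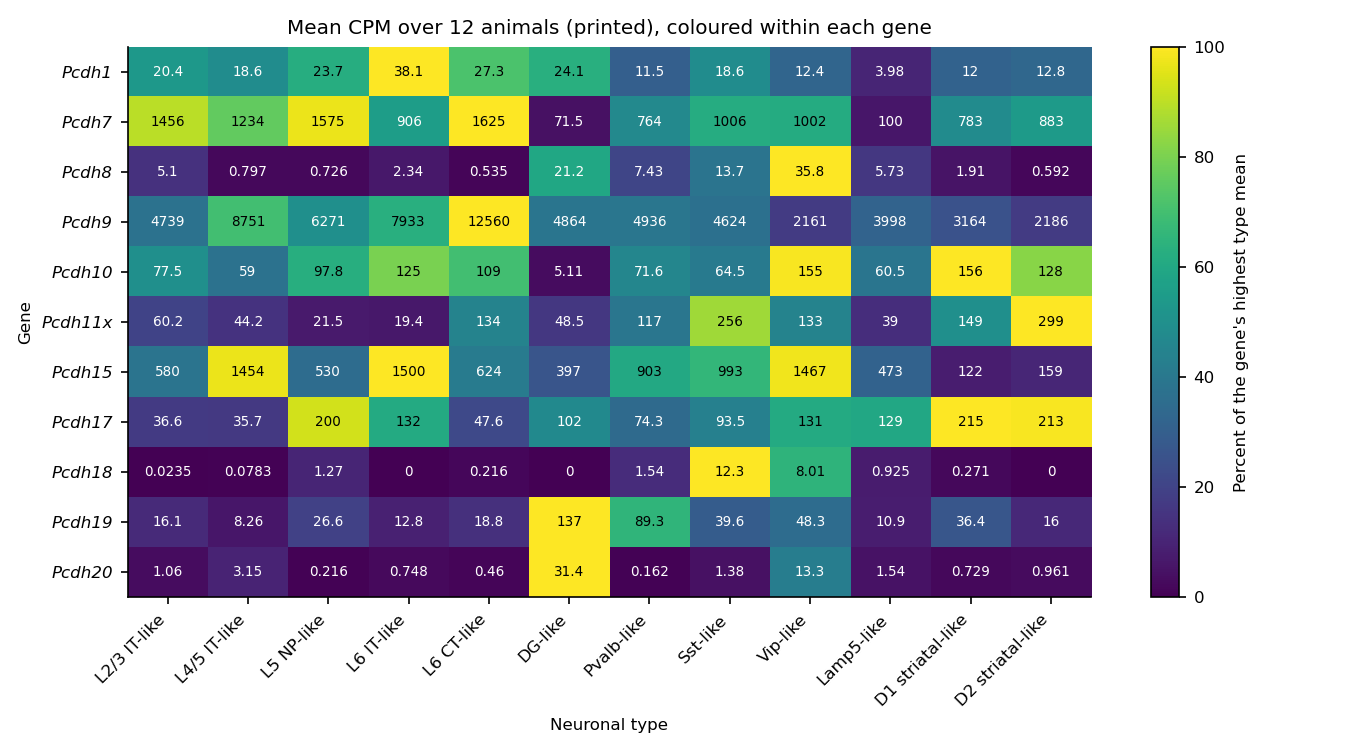
Mean CPM over 12 animals of 11 non-clustered protocadherin genes (rows) in 12 neuronal types (columns), printed in each cell and coloured as a percent of that gene's highest type mean, so colours are comparable within a row only. Pcdh9 peaks in L6 CT nuclei at 12560 CPM, Pcdh19 and Pcdh20 in DG nuclei, and Pcdh10 and Pcdh7 have their lowest means there.

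In the main fits run here, the comparison the study was designed for, Het against WT, called no protocadherin gene. The study's own P21 list includes Pcdh7 in Pvalb nuclei. Its calls rest on more nuclei, its own clusters and DESeq2, and are not compared gene by gene here. Pseudobulk sums per animal were compared by edgeR's quasi-likelihood test over all genes, and a gene was called when its p, adjusted after Benjamini-Hochberg, lay under 0.05 with a log2 fold change beyond 0.2 in either direction. In 6 classes, 55 members passed the filter on low counts somewhere, giving 130 tests with 0 calls, where 0.15% of all gene tests were called. Of the 130, 5 had an unadjusted p under 0.05 (3.85%, against 6.38% of all tests), 4 of them lower in Het, and the smallest adjusted p was 0.3345. The other 14 members were too sparse to be tested in any class.

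In the 12 neuronal types, 26 members gave 116 tests with 0 calls, where 0.215% of all tests were called. Here 17 had an unadjusted p under 0.05, 14.7% against 7.71% of all tests, and 16 of the 17 were lower in Het. Of these 16, 7 were Pcdh7 alone, in types of the same 12 animals. The share lower in Het among all tests at that p was not computed. The smallest adjusted p was 0.05739, for Pcdh7 in Pvalb nuclei. DESeq2 also called 0 members in classes and 0 in types (0.0799% and 0.0553% of all its tests were called), with 5 of 362 and 19 of 795 member tests at an unadjusted p under 0.05, beside 1.6% and 1.42% of all its tests.

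Pcdh7 in Pvalb nuclei had 707 CPM (lowest), 859 (median) and 984 (highest) in WT, on 1918 UMIs in all, and 565, 669 and 781 CPM in Het, on 1630 UMIs. In 4 of 6 Het animals it was below every WT animal, and the groups overlapped. The log2 fold change was -0.36 (SE 0.083, 95% interval -0.53 to -0.19), that is 22% less, with an edgeR Benjamini-Hochberg adjusted p of 0.05739, beside 0.0645% of genes called in this type and a median log2 fold change of 0.0047 over all genes. Leaving out single animals carried it past the threshold: the adjusted p was 0.01274 without WT female 1 and 0.03509 without Het male 1, and over the alternatives it ranged up to 0.336, with DESeq2. Marker sums in the same nuclei overlapped between genotypes but ran over different ranges. Excitatory markers (6 of 7 detected, Neurod6 at 0) summed to 20.3 to 54.1 CPM in WT and 9.42 to 25.6 CPM in Het. Oligodendrocyte markers (9 of 9 detected) summed to 30.4 to 157 and 23.5 to 62.2 CPM. Inhibitory markers of their own class summed to 487 to 709 and 688 to 753 CPM. That sum took 5 of the 6 genes of the inhibitory list used above, all 5 detected. Their part in the Pcdh7 difference was not tested.

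The log2 fold change of Pcdh7 was below 0 in 12 of 12 types, 7 of them at an unadjusted p under 0.05, and in 4 of 6 classes. The direction turned in Lamp5 with all barcodes (0.079) and in L4/5 IT when Het female 1 or WT female 3 was left out (0.012 and 0.013), and in L4/5 IT the mean CPM was 1231 in WT and 1237 in Het. The types are samples of the same 12 animals and do not count as repeats. In L5 NP nuclei WT animals had 1601 to 1806 CPM (median 1713) and Het animals 1177 to 1570 CPM (median 1532). That was the only one of the 12 types in which the genotypes did not overlap for Pcdh7, with a log2 fold change of -0.29 (SE 0.084) and an adjusted p of 0.2249 (edgeR, Benjamini-Hochberg). The share of all genes whose genotypes lay apart in L5 NP was not computed, so this separation has no background beside it. Microglial markers (7 of 7 detected) in the same L5 NP sums also separated by genotype, at 52.7 to 120 CPM in WT and 33.2 to 50.3 CPM in Het, and their part was not tested. In all excitatory neurons WT had 1212, 1292 and 1335 CPM (lowest, median, highest) and Het 994, 1180 and 1221 CPM, with 5 of 6 Het animals below every WT animal. The log2 fold change there was -0.17 (SE 0.055) with an adjusted p of 0.3345, beside 0.145% of genes called and 7.56% at an unadjusted p under 0.05. Astrocyte markers (8 of 8 detected) in these excitatory sums were at 25.1 to 30.6 CPM in WT and 21.6 to 24.3 CPM in Het, and their part was not tested.

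In all inhibitory neurons Pcdh7 was at 872.5, 942.9 and 1165 CPM in WT and 803.3, 831.5 and 971.2 CPM in Het (log2 fold change -0.20, SE 0.079, edgeR adjusted p 0.5712, with 0.254% of genes called and 6.54% at an unadjusted p under 0.05). Nuclei of the named D1 and D2 striatal types were 7.82 to 13.6% of the inhibitory nuclei in WT animals (median 8.49%) and 12.8 to 18.7% in Het animals (median 16.1%). Unnamed inhibitory clusters of 208 and 146 nuclei, which best matched the D1 and the D2 striatal list, are not in these shares. The class was also fitted without the named striatal types, an alternative chosen after the data were seen, in which those unnamed clusters stayed. Pcdh7 was then at 847.1, 955.8 and 1168 CPM in WT and 802.3, 862 and 1003 CPM in Het, with a log2 fold change of -0.17 (SE 0.084, edgeR adjusted p 0.9998). In that set edgeR called 0 of 11047 genes of any kind, and 415 had an unadjusted p under 0.05. Estimates in the other types were -0.44 in D1 striatal, -0.43 in DG, -0.38 in D2 striatal, -0.29 in Vip and in Lamp5, -0.24 in L6 IT, -0.20 in L2/3 IT, -0.17 in L6 CT, -0.11 in Sst and -0.023 in L4/5 IT nuclei. In glia they were -0.23 in oligodendrocytes, -0.10 in precursors, 0.059 in newly formed oligodendrocytes and 0.010 in astrocytes. None of these passed the adjusted threshold. In D2 striatal sums excitatory markers (4 of 7 detected, with Neurod6, Tbr1 and Neurod2 at 0) were at 64.8 to 114 CPM in WT and 119.4 to 192.4 CPM in Het. In Vip sums inhibitory markers (5 of the 6 listed genes were summed, all 5 detected) were at 626.9 to 747.6 and 793.4 to 1031 CPM. Their part in the Pcdh7 estimates was not tested.

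**Figure D5:**
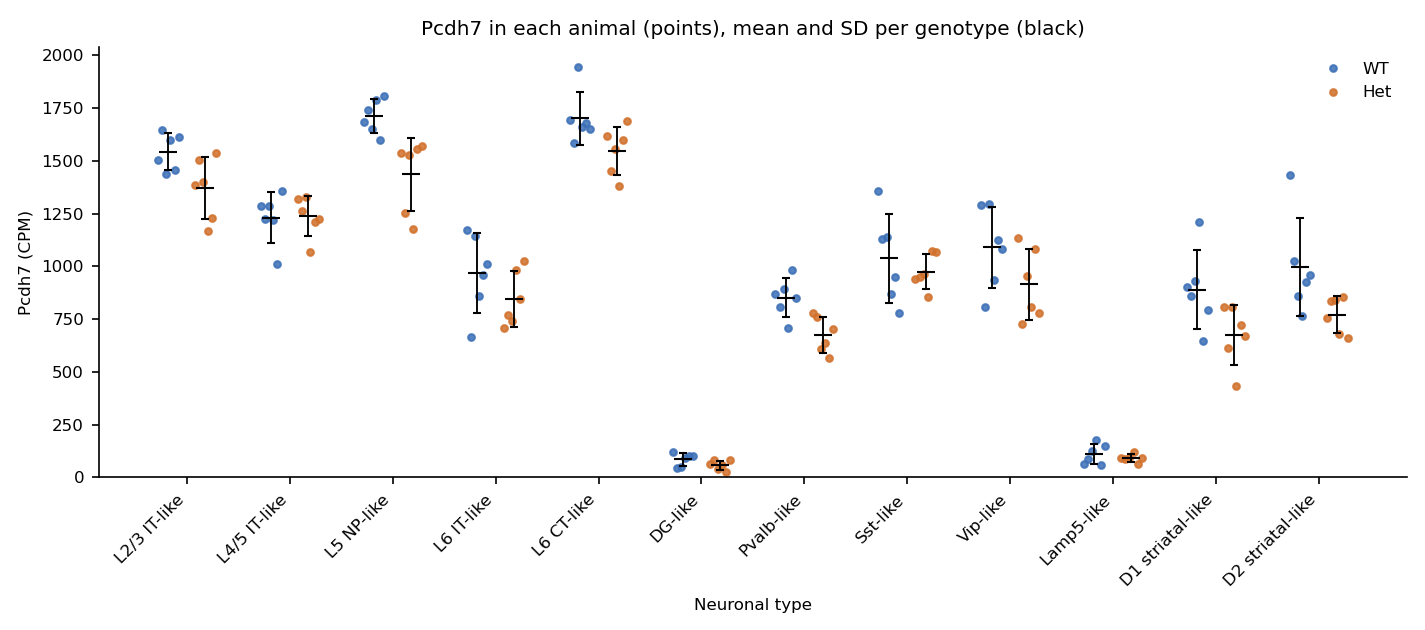
Pcdh7 in CPM (vertical axis, starting at 0) in each animal for 12 neuronal types, WT in blue and Het in orange, with the mean ± SD of each genotype in black. Het means are lower in 11 types and level with WT in L4/5 IT, and only in L5 NP nuclei do the animals of the 2 genotypes not overlap. The share of all genes apart in this way was not computed.

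Pcdh10 in L4/5 IT nuclei had 48.8, 72.6 and 83.7 CPM (lowest, median, highest) in WT and 36.1, 49.5 and 59.8 CPM in Het. In Het, 3 of 6 animals lay below every WT animal. The log2 fold change was -0.59 (SE 0.15) with an edgeR adjusted p of 0.09966, which became 0.04944 without WT female 2. With all barcodes the estimate was -0.15 with an edgeR adjusted p of 0.6077, the weakest of the alternatives. Pcdh1 in L2/3 IT nuclei was higher in Het, the 1 type test at an unadjusted p under 0.05 in that direction. Its values were 10.7, 14.2 and 22.5 CPM in WT and 13.0, 23.9 and 42.8 CPM in Het, a log2 fold change of 0.76 (SE 0.25) with an edgeR adjusted p of 0.2464, and 4 of 6 Het animals lay above every WT animal. With all barcodes it was called, at a log2 fold change of 0.50 (SE 0.10, edgeR adjusted p 0.03878), and the estimate ran from 0.50 to 0.92 over the alternatives, with adjusted p up to 0.5409.

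Pcdh11x in Sst nuclei, the somatostatin interneurons, had 171, 329 and 447 CPM in WT and 164, 194 and 271 CPM in Het. The log2 fold change was -0.66 (SE 0.18) with an edgeR adjusted p of 0.4271, and 0.006758 without WT female 1. Over the alternatives the estimate ran from -0.76 to -0.46 and the adjusted p from 0.0006517 to 0.8086. In oligodendrocytes Pcdh11x ran from 228 to 1139 CPM in WT and 390 to 763 CPM in Het (log2 fold change -0.57). Pcdh17 in L6 IT nuclei ran from 23.8 to 225 CPM in WT and 98.8 to 138 CPM in Het (-0.55, edgeR adjusted p 0.6686), where the WT spread covered all Het animals.

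The members with the smallest p in astrocytes, precursors, newly formed oligodendrocytes and Lamp5 nuclei overlapped between genotypes. Pcdh9 in astrocytes had 5598, 5722 and 6703 CPM in the 3 WT animals and 4539 to 5964 CPM in the 5 Het animals (-0.31, edgeR adjusted p 0.9258), and 4 of the 5 lay below every WT animal. In the same astrocyte sums, oligodendrocyte markers (8 of 9 detected, Cnp at 0) were at 135.4 to 896.2 CPM in WT and 26.4 to 127.5 CPM in Het, and microglial markers (7 of 7 detected) at 200.4 to 464.7 and 45.5 to 138.3 CPM. Oligodendrocytes had the highest Pcdh9 level of the classes, and the part of these markers was not tested. In oligodendrocyte precursors Pcdh9 ran from 6890 to 9745 CPM in WT and 7574 to 9091 CPM in Het (-0.072). Pcdh15 ran from 343 to 1170 CPM in WT and 593 to 863 CPM in Het newly formed oligodendrocytes (-0.23), and from 356 to 653 and 311 to 578 CPM in Lamp5 nuclei (-0.20).

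For the clustered genes the precision differed between arrays. In excitatory neurons, 14 of 14 alpha genes were tested, with log2 fold changes from -0.13 to 0.046 (median -0.072) and 95% intervals whose half-width had a median of 0.20. All 22 gamma genes there ran from -0.12 to 0.20 (median 0.0077, half-width 0.27), and 8 of 21 beta genes from -0.24 to 0.45 (median 0.028, half-width 0.49). In inhibitory neurons the alpha median was -0.018, and 17 of 21 gamma genes tested were above 0, where 48.9% of all genes were, with a median of 0.13, and half-widths there were 0.27 for alpha, 0.37 for gamma and 0.57 for beta genes. Without the named striatal types, 15 of 21 gamma genes were above 0 with a median of 0.11. These genes share divided UMIs, so they are not separate observations, and no clustered gene reached an unadjusted p under 0.05 in either neuronal class (without the named striatal types, 1 gamma gene did).

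The array sums overlapped between genotypes in each class examined. In excitatory neurons the alpha sum was 225.5 to 253.6 CPM in WT and 221.6 to 260.6 CPM in Het, the gamma sum 170.5 to 230.9 and 184.4 to 222.2 CPM, and the beta sum 25.1 to 45.3 and 28.6 to 43.7 CPM. In inhibitory neurons the gamma sum was 187.7 to 264.8 CPM in WT and 201.2 to 267.2 CPM in Het, and 176.8 to 259.9 and 205 to 260.4 CPM without the named striatal types. In oligodendrocyte precursors it was 335.3 to 582.9 CPM in WT and 460.4 to 669.6 CPM in Het, a mean 1.28-fold higher in Het with overlapping animals.

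Sexes were compared because Pcdh11x and Pcdh19 are X-linked, and Pcdh19 acts through cellular mosaicism in females. With genotype as covariate, 0 of 128 member tests in 6 classes were called (0.0907% of all tests). Of the 128, 1, Pcdhb22 in inhibitory neurons, had an unadjusted p under 0.05, against 3.67% of all tests. Pcdh11x ran from 59.3 to 98.3 CPM in females and 67.0 to 124.2 CPM in males in excitatory neurons (log2 female against male -0.12, 95% interval -0.60 to 0.37). Pcdh19 ran from 14.5 to 22.3 CPM in females and 13.98 to 30.1 CPM in males in the same class (-0.17, -0.55 to 0.21), and in inhibitory neurons from 47.1 to 68.1 and 39.3 to 69.5 CPM (0.085, -0.17 to 0.34). The intervals leave room for differences of that size in either direction.

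The interaction of sex and genotype was called for 0 of 128 member tests in 5 classes (0.00557% of all tests). It had an unadjusted p under 0.05 for 8 of them (6.25%, against 5.02%): Pcdh20, Pcdh11x and Pcdhgc5 in excitatory neurons and Pcdhb16, Pcdhga6, Pcdh8, Pcdhb22 and Pcdh11x in inhibitory neurons. The smallest adjusted p was 0.7329 (edgeR, Benjamini-Hochberg), for Pcdh20.

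Genes of the wider pathway were taken from 3 lists. For promoter choice and cohesin (Ctcf, Rad21, Smc3, Nipbl, Wapl, Smchd1, Dnmt3a and others), 15 of 16 genes were tested in excitatory neurons, and 0 were called, with a median log2 fold change of -0.012. For intracellular partners, among them the WAVE complex genes Cyfip1, Cyfip2 and Nckap1 and the kinases Fyn and Ptk2b, 17 of 17 were tested, 14 were above 0, where 49% of all genes were, and 0 were called, with a median of 0.080. For classical and related cadherins, 20 of 23 were tested with a median of -0.072 and 0 calls, beside a median of -0.0029 over all genes. The 3 lists held 0 calls in 186 class tests and 2 in 428 type tests, beside the 0.15% and 0.215% of all tests given above. Both were lower in Het and both are type II cadherins: Cdh6 in L6 CT nuclei (log2 fold change -0.64, SE 0.15, adjusted p 0.02222) and Cdh9 in Sst nuclei (-0.65, SE 0.12, adjusted p 0.009718), by edgeR with Benjamini-Hochberg adjustment. The paper names Cdh6 and Cdh9 among genes higher in WT at P21, from these same animals.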

How the data were processed

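Cortex nuclei of 12 P21 animals were measured on the Scale Biosciences platform. The authors deposited 1 matrix per animal of estimated counts (expected counts) per gene and barcode, made with the ScaleRna pipeline on mm10, in which a UMI that fits several genes is divided among them; the labels also name Seurat 4.3.0 and DESeq2 1.38.3. Totals were 23429386 to 59958572 UMIs per animal. Barcodes were kept at the study's limits (UMIs between 800 and 6000, genes between 300 and 3000, mitochondrial share up to 1%), which set aside 33589 barcodes with more UMIs. The 5% of barcodes with the highest doublet score per animal (scanpy 1.11.5) were removed. Clusters were made with 3000 variable genes, 50 components and Leiden, at resolution 1 and, within neurons, 1.5, and 31 of 75 were named from fixed markers. The naming criteria were set after the clusters were seen. Non-neuronal clusters with neuronal transcripts over 25% of the neurons' median, clusters with microglial markers among them, stayed unnamed.

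Counts were summed per animal and class or type (at least 10 nuclei per animal, 3 animals per genotype), rounded and tested with edgeR 4.0.16 (TMM, filterByExpr, quasi-likelihood, genotype only), with Benjamini-Hochberg adjustment. Levels are CPM of the sums, with no test across classes, since classes were made from the same nuclei. Class sums held 21990 (astrocytes) to 9188586 UMIs (excitatory) per animal. On simulated excitatory sums of 13748 genes with 200 changed, 70% were recovered at an absolute log2 fold change of 0.6 and 94.8% at 1, with 14 unchanged genes called. Excitatory sums are the deepest, so this does not give the recovery in other classes, in types or at smaller changes. Replicate numbers are taken as names, not pairs. Alternatives were DESeq2 1.42.0, RLE size factors, no filter, a sex covariate, doublets kept, all barcodes (labelled by 15 nearest neighbours), the whole-number part of entries, a replicate block, leaving out each animal and, added after the data were seen, the inhibitory class without the named striatal types. Members and lists were chosen with earlier results of these data known. Genes named are the member with the smallest p in each class and type, non-clustered members, C-type and most whole-counted clustered members. Also named are Pcdh7 in Pvalb nuclei, which the study lists at P21, X-linked members and flagged ones.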

Additional observations from a re-analysis of the deposited data

Results flagged for a closer look

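Of 76 genotype groups of 4 to 6 animals, 5 held an animal far from the others of its genotype by Dixon's criterion at its 95% level. Chance flags about 1 in 20 groups. Pcdh7 in astrocytes was at 1807 CPM in Het male 2, where the other 4 Het animals had 1184 to 1362 CPM. Pcdh7 in excitatory neurons was at 993.6 CPM in Het female 1, below the 1157 to 1221 CPM of the others. In inhibitory neurons Pcdh7 was at 971.2 CPM in Het female 2, above 803.3 to 851.8 CPM. Pcdh7 in L6 CT nuclei was at 1944 CPM in WT male 3, above 1585 to 1693 CPM. The summed Pcdhg genes in inhibitory neurons were at 264.8 CPM in WT male 2, above 187.7 to 213.3 CPM in the other WT animals.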

How the results depend on the processing

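For Het against WT, counts of called members stayed at 0 in classes under every alternative run. In the 12 types the count was 1 with all barcodes (Pcdh1 in L2/3 IT, edgeR adjusted p 0.03878) and 1 with no filter on low counts (Pcdh11x in Sst, 0.0006517), and it ranged from 0 to 2 when each animal was left out: 2 without WT female 1 (Pcdh7 in Pvalb, Pcdh11x in Sst), 1 without WT female 2 (Pcdh10 in L4/5 IT) and 1 without Het male 1 (Pcdh7 in Pvalb). Of all gene tests in the types, 0.217% were called with all barcodes, 0.0807% with no filter, 0.33% without WT female 1, 0.269% without WT female 2 and 0.206% without Het male 1. The replicate block gave 0 and 0 calls. Between the sexes, and for the interaction of sex and genotype, DESeq2 called 0 of 362 and 0 of 322 member tests in classes. The share over all its tests there is not given here. Correlations between same-numbered animals of the 2 genotypes in excitatory sums ran from -0.11 to 0.19. Such low values cannot exclude a pairing, for example by litter or handling. With all barcodes, divided UMIs made up 72.6% of Pcdha, 61.1% of Pcdhg and 0.482% of non-clustered UMIs. Of the log2 fold changes of named genes, 514 kept their direction and side of the threshold, 6 passed it and 9 turned. Those that turned were Pcdh15 in newly formed oligodendrocytes without WT male 2 (0.065, with -0.50 to 0.065 over the animals left out), Pcdh7 in astrocytes without Het male 2 (-0.085) and without WT male 2 (-0.075, with -0.085 to 0.15 over the animals left out), Pcdh7 in L4/5 IT without Het female 1 (0.012) and without WT female 3 (0.013, with -0.066 to 0.013 over the animals left out), Pcdh7 in Lamp5 with all barcodes (0.079), Pcdh7 in newly formed oligodendrocytes under the replicate block (-0.029), and, with no filter, Pcdh7 (0.056) and Pcdh9 (0.099) in oligodendrocyte precursors. The cause was not tested. With all barcodes, Pcdh9 was at 32120 CPM in oligodendrocytes and Pcdh15 at 243.8 CPM in oligodendrocytes and 4284 CPM in precursors. Glial classes rest on few nuclei, which limits their precision.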
